A study of Homo sapiens with 12 samples.

Results

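The 10 genes described here belong to the activin and TGF-beta signalling pathway: the ligands INHBA and TGFB1, the receptors TGFBR1, ACVR1B and TGFBR2, the signal transducer SMAD3, its inhibitors SMAD7 and SKIL, the ligand antagonist FST, and the secreted protein TGFBI. They were taken by gene symbol from the read count and FPKM tables, and all 10 were found among the 19225 genes listed there. The members were selected on results already known for these libraries, namely the levels in MK medium against growth medium. For that comparison their values are therefore given as a description, with no test.

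Activins and TGF-beta are secreted dimers that bind a type II receptor kinase, which then activates a type I receptor kinase. For both ligand groups the type I receptor phosphorylates SMAD2 and SMAD3, which join SMAD4 and act in the nucleus. Early targets include SMAD7 and SKIL, which dampen the signal, and follistatin, which traps activin outside the cell. In blood formation activin A is known for promoting haemoglobin synthesis in K562 cells, and platelets are a major store of TGF-beta 1.

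RNA was sequenced from K562, an established human line from chronic myeloid leukaemia that can take on erythroid or megakaryocyte features. The 12 libraries form 4 groups of 3, all cultured for 3 days: siRNA against RHOB (siRHOB) in MK medium, negative control siRNA (siNC) in MK medium, siRHOB in growth medium, and siNC in growth medium. MK medium stands for megakaryocyte differentiation medium, and the sources used here do not give its composition. Every group received an siRNA. The labels give the siNC groups as WT and the siRHOB groups as RHOB knockdown, and do not state if replicates came from separate cultures. All p-values therefore rest on the spread among these libraries, which could be technical. The experiment addressed how RHOB bears on megakaryocyte and erythroid differentiation.

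Libraries held 34412558 to 54048161 reads over the genes of the table. The megakaryocyte identity named by the labels was checked with 8 marker genes, whose summed level was 1285 to 1632 CPM (reads scaled to a common library total, TMM-normalised) in MK medium and 91.8 to 175.0 CPM in growth medium, where GP9, PF4 and VWF were at 0. The summed level of 9 K562 and erythroid markers was 5454 to 9170 CPM in MK medium and 4579 to 5867 CPM in growth medium. RHOB, the siRNA target, stood at 12.6 to 22.1 CPM in siRHOB and 10.1 to 32.7 CPM in siNC libraries in MK medium. In growth medium it stood at 0.465 to 3.30 CPM in siRHOB and 1.42 to 6.20 CPM in siNC libraries, with the groups overlapping in both media. By replicate number, siRHOB stood at 51.1%, 70.5% and 32.7% of siNC in growth medium, lower in 3 of 3 pairs, and at 97.9%, 153% and 67.7% in MK medium. The log2 fold change of RHOB was -0.15 ± 0.69 in MK medium and -0.83 ± 0.72 in growth medium (SE, adjusted p = 1 for each by the quasi-likelihood test of edgeR), and -0.16 ± 0.75 in MK medium and -0.82 ± 0.83 in growth medium with the replicate number as a block, so the siRHOB groups are called by their labels throughout.

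Replicate 3 lay apart from replicates 1 and 2 in every group. The SD across genes of its log2 difference from the other replicates was 0.65 to 0.83, against 0.38 to 0.47 between replicates 1 and 2. Several of the 10 genes were high mainly in replicate 3 of MK medium, so their values are given for each library and, where replicate 3 carries a change, also without it. In bulk RNA, fewer cells with a transcript and less transcript per cell cannot be told apart.

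The sequences just upstream of 3 genes that are described closely below are shown first. INHBA, SMAD7 and SKIL were chosen because all were higher in MK medium than in growth medium, and because SMAD7 and SKIL are textbook targets of SMAD proteins. Each is the 250 bases before the annotated start, 5′ to 3′ on the gene's strand, from RefSeq promoters on GRCh38.p14. The INHBA window is chr7:41703091-41703340 (minus strand), the SMAD7 window chr18:48950966-48951215 (minus strand, the first of 3 windows listed for that gene) and the SKIL window chr3:170357465-170357714 (plus strand). Capitals mark the SMAD box CAGAC or its reverse complement GTCTG.
INHBA: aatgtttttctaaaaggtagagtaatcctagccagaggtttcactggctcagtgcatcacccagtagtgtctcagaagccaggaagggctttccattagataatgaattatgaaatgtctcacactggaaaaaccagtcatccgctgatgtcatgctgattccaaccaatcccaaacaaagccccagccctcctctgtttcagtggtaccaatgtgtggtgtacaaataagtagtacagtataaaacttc
SMAD7: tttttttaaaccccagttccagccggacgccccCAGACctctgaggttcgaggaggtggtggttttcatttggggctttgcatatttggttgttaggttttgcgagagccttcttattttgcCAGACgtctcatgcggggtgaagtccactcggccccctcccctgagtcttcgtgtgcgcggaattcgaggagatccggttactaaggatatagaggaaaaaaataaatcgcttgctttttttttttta
SKIL: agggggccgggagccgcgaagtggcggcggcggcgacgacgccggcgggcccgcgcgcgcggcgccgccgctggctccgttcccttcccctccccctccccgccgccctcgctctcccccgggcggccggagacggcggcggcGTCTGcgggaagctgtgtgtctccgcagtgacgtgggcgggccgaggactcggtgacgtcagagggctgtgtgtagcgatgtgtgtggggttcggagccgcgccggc

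SMAD7 held CAGAC at positions -217 and -128, counted to the first base of the match with -1 as the base before the start, and SKIL held GTCTG at -107. The INHBA window held neither. CAGAC on either strand was present in 38.0% of the 35116 promoter windows of this length, and in the first listed window of 3 of the 10 members (SMAD7, SKIL and TGFBR1). For the members only that first window was searched. In all, 8 windows are listed for TGFBR1, 5 for SMAD3, 3 for SMAD7 and 2 each for ACVR1B and TGFBR2. The palindrome GTCTAGAC, which joins both strands' boxes, was in 0.182% of windows and in the first window of none of the members. The other windows of the members were not searched for it one by one. The pattern TGANTCA, a loose form of the AP-1 motif that allows any middle base, was in 6.57% of windows on either strand. It was in 1 member, FST, where the match read TGATTCA, with T in the middle. Matches with C or G in the middle, the usual AP-1 site, were not counted separately. The INHBA window had a GC content of 42.8%, SMAD7 48.0% and SKIL 78.4%, against a median of 58.0% over all windows. A match of this kind describes the letters in the window and shows no binding.

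**Figure D1:**
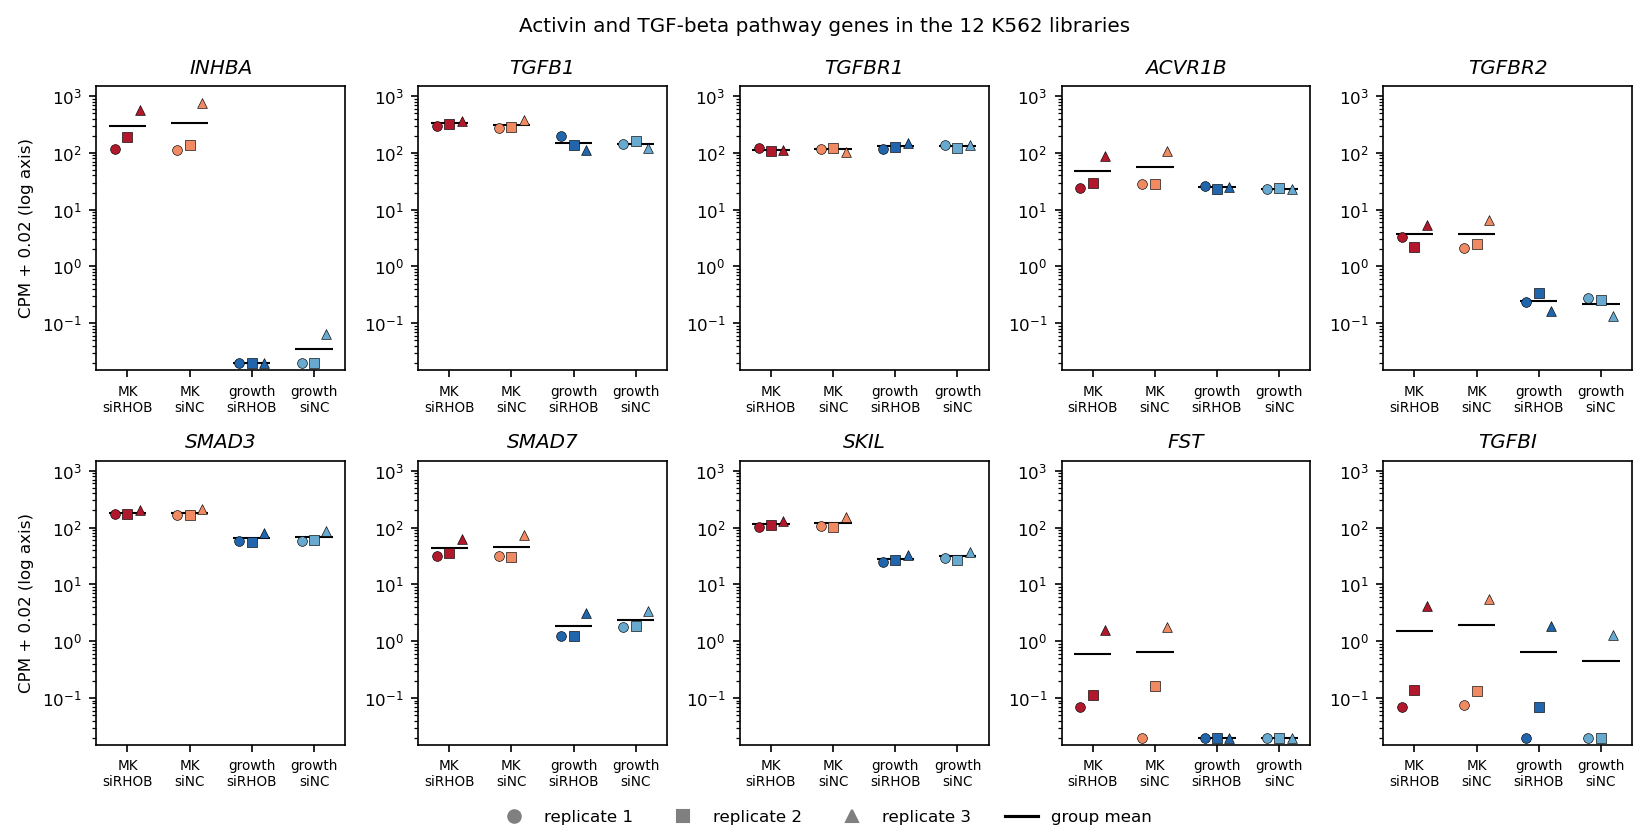
TMM-normalised CPM plus a small offset on a log axis for the 10 genes in each library, with groups in MK medium left of those in growth medium, siRHOB left of siNC, marker shapes for replicates and a line at each group mean. INHBA lay at 111 CPM or more in all 6 MK libraries and at 0.045 CPM or less in all 6 growth libraries, while TGFBR1 stayed between 105 and 152 CPM in all 12.

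INHBA encodes the beta A subunit, which forms activin A as a dimer. INHBA held 115, 188 and 576 CPM in replicates 1, 2 and 3 of MK medium with siRHOB, against 0 reads in all 3 libraries of growth medium with siRHOB. With siNC it held 111, 134 and 761 CPM in MK medium, against 0, 0 and 0.045 CPM in growth medium, the last being 2 reads. The groups did not overlap, and replicate 3 was 3.81 times (siRHOB) and 6.20 times (siNC) the mean of replicates 1 and 2 in MK medium.

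With siRHOB, INHBA was at least 11058-fold higher in MK medium, measured against a floor of 3 reads over the growth group. That bound was at least 6020-fold without MK_siRHOB 3, at least 7244-fold to 7608-fold without any 1 growth library, and at least 3943-fold with replicates 1 and 2 alone. With siNC the ratio was 23128 (exact 95% interval of the read counts 6402 to 190983). Without MK_siNC 3 the ratio was 8268, without Ctl_siNC 1 or 2 it was 16411 or 14300, and without Ctl_siNC 3, which held the 2 reads, it was at least 10363. Such intervals and floors account for counting error alone, because they pool the reads of a group and leave out the spread between libraries. They also take each read as a separate molecule, which PCR duplicates are not.

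The rank of INHBA among all genes is given next. By FPKM, which divides reads by gene length and library total, it ranked between 659 and 4175 among the 19225 genes in MK medium with siRHOB, and between 459 and 4322 with siNC. TGFB1 was nonetheless the more abundant ligand in every library. INHBA amounted to 0.178, 0.260 and 0.710 of the TGFB1 FPKM in replicates 1, 2 and 3 of MK medium with siRHOB, and to 0.180, 0.212 and 0.905 of it with siNC.

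TGFB1 encodes TGF-beta 1, the form stored in platelets. TGFB1 stood at 292, 327 and 367 CPM in replicates 1, 2 and 3 of MK medium with siRHOB, against 194, 137 and 110 CPM in growth medium. In the siNC arm it stood at 278, 286 and 380 CPM in MK medium, against 142, 164 and 120 CPM in growth medium. All 6 MK libraries lay above all 6 growth libraries, by a log2 fold change of 1.16 ± 0.20 with siRHOB and 1.15 ± 0.20 with siNC (SE).

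Replicate 3 had the highest TGFB1 level in MK medium and the lowest in growth medium in both arms. The ratio of MK to growth medium was accordingly 1.51, 2.39 and 3.33 in pairs 1, 2 and 3 with siRHOB, and 1.95, 1.75 and 3.16 with siNC. TGFB1 overlaps HNRNPUL1, CCDC97 and TMEM91 on the opposite strand in the GENCODE annotation used here for gene positions. These overlaps are of whole gene spans, not of exons, and the sources used here do not give the strand setting of the counting. If reads of these partners entered the TGFB1 counts was not tested. INHBA overlaps INHBA-AS1 in the same way, and SMAD3 overlaps the antisense genes AC087482.1 and AC012568.1. TGFBR1 and TGFBR2 each overlap a pseudogene on the opposite strand, and ACVR1B overlaps RNU6-574P on its own strand. None of these partners has a row of its own in the count table.

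TGFBR1, the type I receptor for TGF-beta also called ALK5, was nearly level. TGFBR1 stood at 120, 107 and 113 CPM in MK medium with siRHOB, against 116, 129 and 152 CPM in growth medium, and these groups overlapped. In the siNC arm TGFBR1 stood at 118, 122 and 105 CPM in MK medium, against 135, 124 and 138 CPM in growth medium, where the MK libraries were all lower. The log2 fold change was -0.22 ± 0.10 with siRHOB and -0.20 ± 0.10 with siNC (SE).

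TGFBR2, the type II receptor that binds TGF-beta, was scarce throughout and higher in MK medium. It stood at 3.33, 2.202 and 5.39 CPM in MK medium with siRHOB, against 0.217, 0.320 and 0.147 CPM in growth medium. In the siNC arm it was 2.06, 2.47 and 6.44 CPM in MK medium, against 0.255, 0.233 and 0.113 CPM in growth medium. No MK library fell into the range of the growth libraries.

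The reads behind TGFBR2 were few: 419 in MK medium and 27 in growth medium with siRHOB, a ratio of 15.5 (exact 95% interval 10.5 to 23.9). With siNC there were 402 and 27 reads, a ratio of 18.5 (12.5 to 28.5). These intervals pool the reads of each group and leave out the spread between libraries. The 95% intervals of the fitted fold change, which include that spread, were 6.51 to 38.1 with siRHOB and 7.40 to 43.8 with siNC. Replicates 1 and 2 alone gave ratios of 10.1 and 9.34, and replicate 3 alone 36.6 and 57.0, with siRHOB and with siNC. The fitted log2 fold change was 3.98 ± 0.58 with siRHOB and 4.17 ± 0.58 with siNC (SE), and 3.48 without MK_siNC 3.

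Per length, TGFBR1 remained far above TGFBR2. The TGFBR1 FPKM was 15.2 to 35.2 times that of TGFBR2 in MK medium with siRHOB, against 292 to 747 times in growth medium. With siNC it was 11.8 to 41.4 times in MK medium, against 383 to 886 times in growth medium. The imbalance between these receptor transcripts was thus smaller in every MK library than in any growth library.

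ACVR1B, the type I receptor for activin also called ALK4, was highest in replicate 3 of MK medium. It stood at 24.3, 29.4 and 87.2 CPM in replicates 1, 2 and 3 of MK medium with siRHOB, against 25.9, 22.7 and 25.2 CPM in growth medium. The siNC arm had 28.2, 28.8 and 108.6 CPM in MK medium, against 23.1, 23.6 and 23.5 CPM in growth medium. The groups overlapped with siRHOB, whereas with siNC all 3 MK libraries lay above the growth libraries. The log2 fold change of 0.93 ± 0.57 with siRHOB was 0.12 without MK_siRHOB 3, and that of 1.24 ± 0.58 with siNC was 0.28 without MK_siNC 3 (SE).

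**Figure D2:**
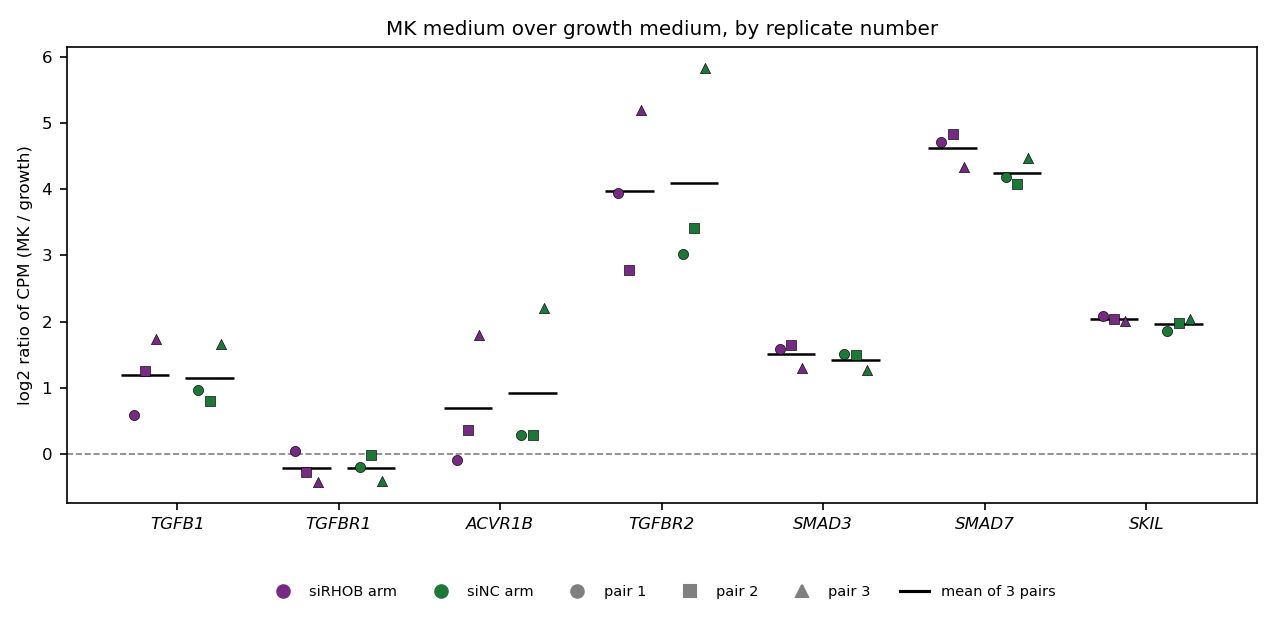
Log2 ratio of CPM in MK medium over growth medium for each replicate number (pair), for the 7 members with reads in every library, with the siRHOB arm left of the siNC arm and a line at the mean of 3 pairs. SKIL, SMAD3 and SMAD7 changed by similar amounts in the 3 pairs, whereas pair 3 stands above the others for ACVR1B and TGFBR2.

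SMAD3, which carries the signal of both ligand groups into the nucleus, was higher in MK medium in all pairs. SMAD3 stood at 171, 175 and 199 CPM in MK medium with siRHOB, against 57.0, 56.1 and 80.8 CPM in growth medium. With siNC it stood at 163, 167 and 209 CPM in MK medium, against 57.0, 59.5 and 86.9 CPM in growth medium. The groups were far apart, with a log2 fold change of 1.49 ± 0.19 with siRHOB and 1.41 ± 0.19 with siNC (SE).

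SMAD7, an inhibitory SMAD that blocks and helps degrade the type I receptor, had the largest fitted change among the members measured in every library. SMAD7 stood at 31.2, 35.0 and 63.0 CPM in MK medium with siRHOB, against 1.19, 1.23 and 3.14 CPM in growth medium. With siNC it stood at 32.0, 30.5 and 75.0 CPM in MK medium, against 1.76, 1.81 and 3.37 CPM in growth medium. Replicate 3 was highest in all 4 groups, and the ratio of MK to growth medium was 26.2, 28.4 and 20.1 in pairs 1, 2 and 3 with siRHOB, and 18.2, 16.9 and 22.3 with siNC.

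The fitted log2 fold change of SMAD7 was 4.53 ± 0.55 with siRHOB and 4.31 ± 0.54 with siNC (SE), and 5.14 without Ctl_siRHOB 3. Because SMAD7 changed more than SMAD3, its share against it shifted. The SMAD7 FPKM was 0.396, 0.433 and 0.685 of the SMAD3 FPKM in replicates 1, 2 and 3 of MK medium with siRHOB, against 0.0453 to 0.0841 of it in growth medium. With siNC it was 0.426, 0.395 and 0.777 in MK medium, against 0.0657 to 0.0839 in growth medium.

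SKIL, the co-repressor SnoN that holds SMAD complexes inactive, had the smallest spread between pairs of the 7 members with reads in every library. SKIL stood at 104, 109 and 133 CPM in MK medium with siRHOB, against 24.5, 26.5 and 33.1 CPM in growth medium. With siNC it stood at 107, 104 and 155 CPM in MK medium, against 29.6, 26.3 and 37.7 CPM in growth medium. The ratio of MK to growth medium was 4.24, 4.10 and 4.01 in pairs 1, 2 and 3 with siRHOB, and 3.61, 3.95 and 4.12 with siNC. The log2 fold change was 2.04 ± 0.19 with siRHOB and 1.97 ± 0.19 with siNC (SE).

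FST, follistatin, was nearly absent, and its reads came from replicate 3 of MK medium. It had 2, 4 and 56 reads in replicates 1, 2 and 3 of MK medium with siRHOB, against 0 in every growth library of that arm. With siNC it had 0, 5 and 66 reads in MK medium, against 0 in every growth library. FST was at least 20.7-fold higher with siRHOB and at least 29.4-fold higher with siNC against the floor of 3 reads, bounds that were 2.87-fold without MK_siRHOB 3 and 3.16-fold without MK_siNC 3. They were 13.6-fold without Ctl_siRHOB 2 or 3, and 18.2-fold without Ctl_siNC 2. It did not pass the filter on low counts and was not fitted.

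Set against its antagonist, INHBA was in large excess. The INHBA FPKM was 745, 649 and 119 times that of FST in replicates 1, 2 and 3 of MK medium with siRHOB, and 307 and 140 times in replicates 2 and 3 with siNC, FST having no read in replicate 1. The lowest excess in each arm was in replicate 3.

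TGFBI, a secreted matrix protein induced by TGF-beta in many cell types, followed the replicate more than the medium. It had 0.050, 0.117 and 4.21 CPM in replicates 1, 2 and 3 of MK medium with siRHOB, against 0, 0.049 and 1.81 CPM in growth medium. With siNC it had 0.056, 0.114 and 5.58 CPM in MK medium, against 0, 0 and 1.27 CPM in growth medium. Replicate 3 was above replicates 1 and 2 in all 4 groups, and the MK and growth ranges overlapped in both arms.

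Within replicate 3, TGFBI had 150 reads in MK medium and 74 in growth medium with siRHOB, a ratio of 2.32 (exact 95% interval 1.75 to 3.11), and 209 and 56 reads with siNC, a ratio of 4.41 (3.27 to 6.03). Each of these ratios compares a single library with a single library, so its interval covers counting error alone. The 95% interval of the fitted fold change over all libraries was 0.0699 to 76.8 with siRHOB and 0.124 to 165 with siNC. The fitted log2 fold change was 1.21 ± 2.27 with siRHOB and 2.18 ± 2.33 with siNC (SE). It was 5.66 without Ctl_siRHOB 3 and -2.84 without MK_siRHOB 3, and 9.25 without Ctl_siNC 3 and -2.28 without MK_siNC 3. With the replicate number as a block it was 1.36 with siRHOB and 2.35 with siNC.

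Endothelial markers were highest in replicate 3 of MK medium, as were several members, though TGFBI was raised in replicate 3 of growth medium too. The summed level of 5 such genes (CDH5, TEK, KDR, TIE1 and CLDN5) was 16.0, 21.4 and 119.3 CPM in replicates 1, 2 and 3 of MK medium with siRHOB, against 0.406 to 1.13 CPM in growth medium. With siNC it was 12.8, 15.9 and 142.0 CPM in MK medium, against 0.281 to 1.13 CPM in growth medium, and CDH5 and KDR were at 0 in both growth groups. Summed fibroblast markers (6 genes) reached 216 to 275 CPM in MK medium, against 13.7 to 17.3 CPM in growth medium, with LUM at 0 in both MK groups. Monocyte and macrophage markers (6 genes) summed to 53.5 to 60.6 CPM in MK medium, with no library apart. In growth medium they stood at 28.8, 30.2 and 76.0 CPM in replicates 1, 2 and 3 with siRHOB, and at 28.7, 28.8 and 74.1 CPM with siNC, so they were high in replicate 3 there. Summed epithelial markers (5 genes) stood at 167 to 226 CPM, against 206 to 262 CPM, with CDH1, KRT5 and KRT14 at 0 in MK medium. The part of these markers in the levels above was not tested.

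By FPKM the order of the 10 genes differed between media. In MK medium with siRHOB, TGFB1 came first (123 ± 13.5 FPKM, SD, n = 3), followed by INHBA (49.4 ± 41.7) and SMAD3 (31.6 ± 2.61). TGFBR1 (18.01 ± 1.13), SKIL (16.7 ± 2.197), SMAD7 (16.2 ± 6.51) and ACVR1B (10.5 ± 7.77) came next, and each overlapped its neighbour in that order. TGFBR2 (0.798 ± 0.353), TGFBI (0.531 ± 0.867) and FST (0.297 ± 0.449) reached at most 1.53 FPKM in a library and overlapped too, as did INHBA and SMAD3. The order was the same with siNC, where TGFB1 and INHBA overlapped as well. In growth medium with siRHOB the order was TGFB1 (52.2 ± 13.8 FPKM), TGFBR1 (20.1 ± 3.53), SMAD3 (10.8 ± 2.79), ACVR1B (5.25 ± 0.443), SKIL (3.92 ± 0.782), SMAD7 (0.679 ± 0.435), TGFBI (0.226 ± 0.377) and TGFBR2 (0.0475 ± 0.0170). INHBA and FST stood last. The first 3 were each apart from the next, and the siNC arm had the same order.

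Of the 10 members, 9 passed the filter on low counts. INHBA and TGFBR2 could do so through the MK groups alone, and TGFBI through replicate 3 alone. The median fitted log2 fold change of the 9 was 1.49 with siRHOB and 1.97 with siNC, beside 0.05 and 0.06 over all genes tested. Since the members were chosen on this comparison, nothing is read from these medians and no calls are counted for them.

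The rest of the pathway was then examined in a list of 97 further genes sorted by role, of which 77 were tested. With siRHOB, 38 rose and 10 fell in MK medium (adjusted p under 0.05, edgeR), and 29 did not pass. With siNC, 39 rose and 9 fell, and 29 did not pass. The share of all 14026 tested genes that passed as higher was 31.0% with siRHOB and 30.5% with siNC, and as lower 29.1% with siRHOB and 28.4% with siNC. With replicates 1 and 2 alone, 41 rose and 15 fell with siRHOB, and 39 rose and 15 fell with siNC. Of the 77, 35 rose in both arms and 9 fell in both, and none passed in opposite directions. The median log2 fold change was 0.94 with siRHOB and 0.80 with siNC. The list was drawn up with earlier results of these data known, so these counts are a description beside the shares over all genes. A gene near 0 in growth medium could pass the filter through the MK groups alone, and could then only be called higher. BMP6, at a mean of 0.065 CPM with siRHOB and 0.087 CPM with siNC in growth medium, was such a gene. Of the 48 calls in each arm, 37 with siRHOB and 34 with siNC held whichever of the 6 libraries was left out, and 46 in each arm held with replicates 1 and 2 alone.

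**Figure D3:**
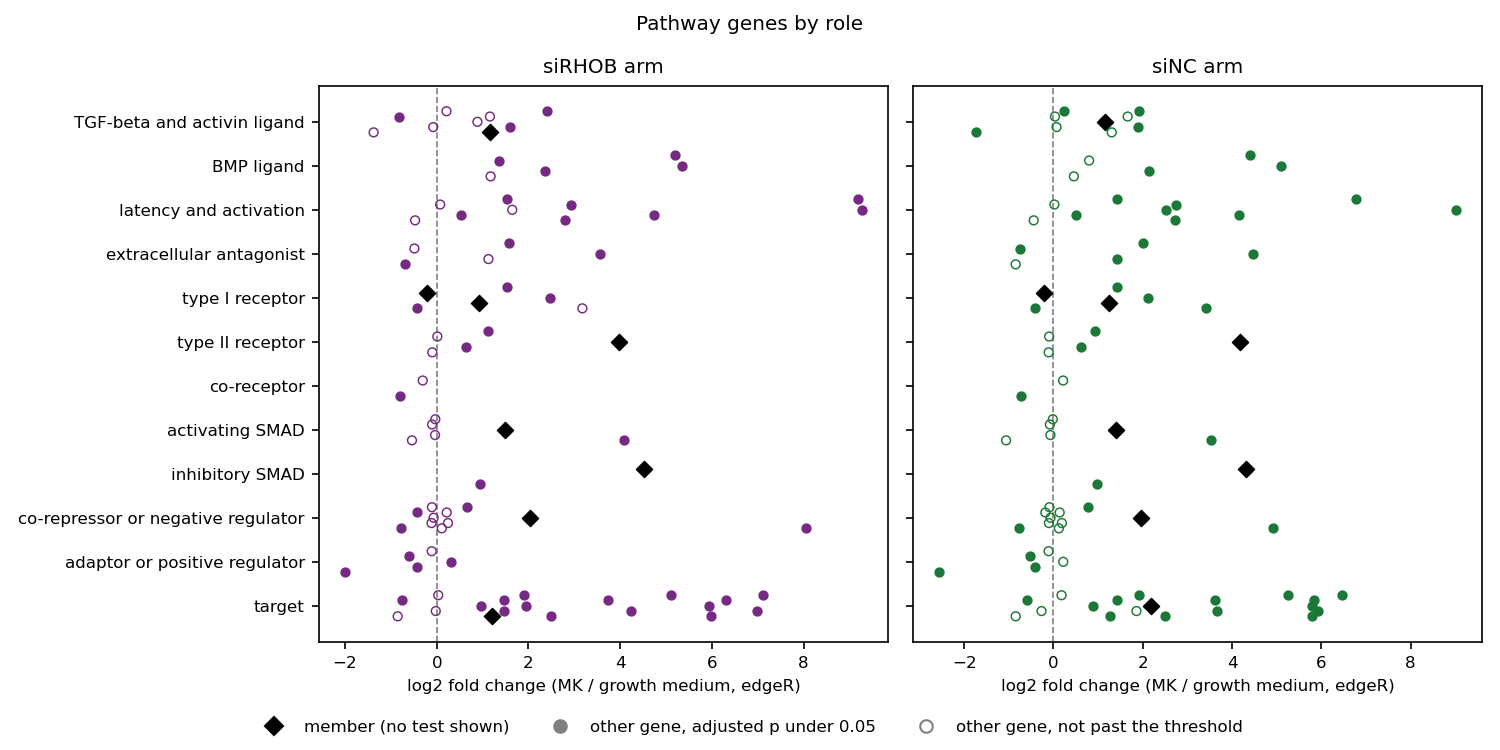
Fitted log2 fold change of the tested pathway genes in MK medium over growth medium by role, siRHOB arm left and siNC arm right, with filled circles for other genes past the threshold, open circles for those not past it and black diamonds for 8 members (INHBA is off the scale and FST was not fitted). Latency and target genes spread to the right, whereas SMAD2, SMAD4 and SMAD5 lie near 0.

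Among genes that store and release TGF-beta, 7 of 10 tested rose with siRHOB and 8 of 10 with siNC, and none fell. Without MK replicate 3, 6 rose and 1 fell in each arm. LTBP1, which tethers latent TGF-beta to the matrix, averaged 619 ± 116 CPM in MK medium and 81.6 ± 21.4 CPM in growth medium with siRHOB (SD, n = 3). Its log2 fold change was 2.92 ± 0.28 with siRHOB and 2.75 ± 0.27 with siNC (SE, adjusted p = 8.47e-06 and 1.4e-05, edgeR). THBS1, thrombospondin 1, a platelet granule protein that activates latent TGF-beta, averaged 1094 ± 621 CPM in MK medium and 1.74 ± 2.34 CPM in growth medium with siRHOB (SD, n = 3). Its log2 fold change was 9.28 ± 1.47 with siRHOB and 9.02 ± 1.45 with siNC (SE, adjusted p = 0.000365 and 0.000427, edgeR), and it was 11.44 without Ctl_siRHOB 3, 12.35 without Ctl_siNC 3 and 8.25 without MK_siNC 3. FURIN, the protease that cleaves the TGF-beta precursor, rose by 0.54 ± 0.20 with siRHOB and 0.51 ± 0.20 with siNC (SE, adjusted p = 0.0375 and 0.0493, edgeR). Its call was lost without MK_siRHOB 3 (0.36), Ctl_siRHOB 1, 2 or 3 (0.61, 0.49 and 0.51), MK_siNC 3 (0.21) or Ctl_siNC 1 or 2 (0.43 and 0.49).

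Other ligands of the family went several ways. Of 8 tested TGF-beta and activin ligands beyond the members, 2 rose and 1 fell with siRHOB, and 3 rose and 1 fell with siNC. The number that rose with siNC was 1 without MK_siNC 3 and 5 with the replicate block. GDF15, a stress-induced cytokine, rose by 2.40 ± 0.56 with siRHOB and 1.92 ± 0.55 with siNC in log2 units (SE, adjusted p = 0.004 and 0.012, edgeR), and by 1.64 without MK_siRHOB 3, while its siNC call was lost without MK_siNC 3 (1.12). INHBE, another activin subunit, fell by 1.72 ± 0.33 with siNC (SE, adjusted p = 0.000921). With siRHOB its log2 fold change was -0.82 ± 0.32 (adjusted p = 0.0465), a call lost without Ctl_siRHOB 1 or 2 (-0.73 and -0.76) or MK_siRHOB 1 or 2 (-0.66 and -0.71). GDF11 stood at 0.21 ± 0.09 with siRHOB and 0.23 ± 0.09 with siNC (adjusted p = 0.0592 and 0.0449), and its siNC call was lost without MK_siNC 1, 2 or 3 (0.21, 0.24 and 0.22) or Ctl_siNC 1 or 2 (0.15 and 0.23), while with siRHOB it passed without MK_siRHOB 2 (0.27) and with the replicate block (0.21, adjusted p = 0.0412, edgeR).

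BMP ligands rose in 4 of 5 tested cases with siRHOB and in 3 of 5 with siNC, with none lower. The number was 2 without Ctl_siRHOB 3, and 1 without Ctl_siNC 1, 2 or 3. BMP10, a ligand of the endothelial receptor ALK1, averaged 25.5 ± 1.62 CPM in MK medium and 0.620 ± 0.503 CPM in growth medium with siRHOB (SD, n = 3). Its log2 fold change was 5.35 ± 0.70 with siRHOB and 4.40 ± 0.66 with siNC (SE, adjusted p = 9.33e-05 and 0.000247, edgeR), and 6.21 without Ctl_siRHOB 3 and 5.25 without Ctl_siNC 3. BMP8B rose with siRHOB (1.37 ± 0.37, adjusted p = 0.00821) and stood at 0.80 ± 0.37 with siNC (adjusted p = 0.0803), where it passed with the replicate number as a block (0.72, adjusted p = 0.0303, edgeR). BMP6, an iron-regulating ligand, rose by 5.20 ± 1.97 with siRHOB and 5.10 ± 1.92 with siNC (SE, adjusted p = 0.0415 and 0.041), but neither call held without MK replicate 3 (2.06 with siRHOB and 1.96 with siNC). The BMP6 calls were also lost without Ctl_siRHOB 1, 2 or 3 (4.66, 5.03 and 6.48) or Ctl_siNC 1, 2 or 3 (5.24, 4.48 and 5.91). GDF2, or BMP9, named after its values were seen, rose by 2.36 ± 0.84 with siRHOB and 2.14 ± 0.83 with siNC (SE, adjusted p = 0.0293 and 0.0434, edgeR). Its call was lost without Ctl_siRHOB 2 or 3 (1.996 and 2.16), MK_siRHOB 1 or 2 (1.89 and 2.19), Ctl_siNC 1, 2 or 3 (1.899, 2.48 and 2.10) or MK_siNC 1 or 2 (1.75 and 1.92).

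Among extracellular antagonists, 2 of 5 tested rose and 1 fell with siRHOB, and 3 rose and 1 fell with siNC. BAMBI, a decoy receptor without a kinase domain and listed here with them, rose by 1.57 ± 0.34 with siRHOB and 1.41 ± 0.34 with siNC in log2 units (SE, adjusted p = 0.00242 and 0.00457, edgeR). FSTL3, a follistatin-like inhibitor of activin, fell by 0.69 ± 0.20 with siRHOB and 0.76 ± 0.20 with siNC (SE, adjusted p = 0.0123 and 0.00783). FSTL3 averaged 3.19 ± 0.499 CPM in MK medium and 5.15 ± 0.493 CPM in growth medium with siRHOB (SD, n = 3). CHRD, chordin, stood at -0.49 ± 0.45 with siRHOB and -0.85 ± 0.45 with siNC (adjusted p = 0.374 and 0.13).

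Of 4 tested type I receptors, 2 rose and 1 fell with siRHOB, and 3 rose and 1 fell with siNC. The number that rose was 1 without Ctl_siRHOB 1 or 2, and 1 without Ctl_siNC 1 or 2 or MK_siNC 3. ACVR1, also called ALK2, rose by 1.53 ± 0.28 with siRHOB and 1.42 ± 0.28 with siNC in log2 units (SE, adjusted p = 0.000759 and 0.00127, edgeR). ACVR1C, or ALK7, rose by 2.48 ± 0.79 with siRHOB and 2.12 ± 0.77 with siNC (adjusted p = 0.0192 and 0.0359), and by 3.75 without Ctl_siRHOB 3 and 3.54 without Ctl_siNC 3. The ACVR1C call was lost without Ctl_siRHOB 1 or 2 (2.12 and 2.10), Ctl_siNC 1 or 2 (1.74 and 1.71) or MK_siNC 1, 2 or 3 (2.09, 2.19 and 2.06). ACVRL1, or ALK1, named after its values were seen, stood at 3.18 ± 1.33 with siRHOB (SE, adjusted p = 0.0601) and rose by 3.42 ± 1.31 with siNC (adjusted p = 0.0452, edgeR). The siNC call was lost without Ctl_siNC 1, 2 or 3 (3.11, 3.35 and 3.88) or MK_siNC 3 (0.82, adjusted p = 0.509). With siRHOB it passed without MK_siRHOB 1 (3.65), with replicates 1 and 2 alone (2.43) and with the replicate block (2.91, adjusted p = 0.00224). BMPR1A stood at -0.42 ± 0.13 with siRHOB and -0.40 ± 0.13 with siNC (adjusted p = 0.013 and 0.0171), a fall that was lost as a call without MK_siRHOB 1 (-0.34), MK_siNC 2 (-0.35) or Ctl_siNC 3 (-0.34).

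Type II receptors rose in 2 of 4 tested cases in each arm, with none lower. BMPR2 rose by 0.64 ± 0.16 with siRHOB and 0.61 ± 0.16 with siNC, and AMHR2 by 1.11 ± 0.29 with siRHOB and 0.92 ± 0.29 with siNC (SE, adjusted p = 0.00471, 0.00649, 0.00639 and 0.0166, edgeR). The AMHR2 call with siNC was lost without MK_siNC 3 (0.82) or Ctl_siNC 1 or 2 (0.69 and 0.80), each of which left 1 receptor higher. ACVR2B, a type II receptor for activin, stood at 0.01 ± 0.08 with siRHOB and -0.11 ± 0.08 with siNC (adjusted p = 0.893 and 0.271). Among co-receptors, TGFBR3, betaglycan, fell by 0.79 ± 0.18 with siRHOB and 0.72 ± 0.18 with siNC (adjusted p = 0.0029 and 0.00517), and ENG, endoglin, stood at -0.30 ± 0.27 with siRHOB and 0.22 ± 0.27 with siNC (adjusted p = 0.35 and 0.509).

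Most of the remaining SMADs did not pass the test. Of 5 tested activating SMADs other than SMAD3, 1 rose (SMAD1, 4.09 ± 0.69 with siRHOB and 3.52 ± 0.66 with siNC in log2 units, with a mean level over the 12 libraries of 0.744 CPM, adjusted p = 0.000407 and 0.000903, named after its values were seen) and none fell. SMAD2, the partner of SMAD3, stood at -0.03 ± 0.07 with siRHOB and -0.08 ± 0.07 with siNC, SMAD4 at -0.04 ± 0.07 with siRHOB and -0.07 ± 0.07 with siNC, and SMAD5 at -0.10 ± 0.11 with siRHOB and -0.01 ± 0.11 with siNC (SE, adjusted p between 0.324 and 0.925, edgeR). SMAD9 stood at -0.54 ± 0.78 with siRHOB and -1.06 ± 0.78 with siNC, at a mean level of 0.275 CPM over the 12 libraries (adjusted p = 0.569 and 0.261, edgeR), and was named after its values were seen. With siNC it passed as lower without MK_siNC 3 (-2.21, adjusted p = 0.0493) and with replicates 1 and 2 alone (-2.12, adjusted p = 0.0326). SMAD6, the other inhibitory SMAD, rose by 0.94 ± 0.26 with siRHOB and 0.97 ± 0.26 with siNC (SE, adjusted p = 0.00898 and 0.0075). SMAD6 averaged 14.2 ± 3.13 CPM in MK medium and 7.44 ± 1.76 CPM in growth medium with siRHOB (SD, n = 3).

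Regulators of SMAD activity changed in both directions. Of 10 co-repressors and negative regulators beyond SKIL, 2 rose in each arm, and 2 fell with siRHOB and 1 with siNC. The share that rose was 20% in each arm, beside 31.0% with siRHOB and 30.5% with siNC over all tested genes. The share that fell was 20% with siRHOB and 10% with siNC, beside 29.1% and 28.4%. The number that rose was 1 without Ctl_siRHOB 1 or 2 or MK_siRHOB 2, and 1 without Ctl_siNC 1, 2 or 3 or MK_siNC 3, while 4 rose in each arm with replicates 1 and 2 alone. Without MK_siNC 3, 2 fell with siNC. PMEPA1, named after its values were seen, rose by 8.05 ± 1.77 with siRHOB and 4.93 ± 1.25 with siNC in log2 units (SE, adjusted p = 0.00349 and 0.00775, edgeR). Its calls held whichever library was left out, with the siNC value between 3.59 and 8.23. TGIF1, a co-repressor named after its values were seen, rose by 0.66 ± 0.26 with siRHOB and 0.79 ± 0.26 with siNC in log2 units (SE, adjusted p = 0.0483 and 0.024, edgeR). Its call was lost without Ctl_siRHOB 1, 2 or 3 (0.76, 0.64 and 0.59), MK_siRHOB 2 or 3 (0.75 and 0.40), Ctl_siNC 1, 2 or 3 (0.82, 0.78 and 0.74) or MK_siNC 3 (0.38). SKI, the closest relative of SKIL, stood at -0.11 ± 0.10 with siRHOB and -0.09 ± 0.10 with siNC in log2 units (SE, adjusted p = 0.327 and 0.443, edgeR), and with replicates 1 and 2 alone it passed as lower with siRHOB (-0.20, adjusted p = 0.0266). TRIM33 stood at -0.07 ± 0.07 with siRHOB and -0.06 ± 0.07 with siNC, and LEMD3 at -0.10 ± 0.07 in both arms (adjusted p between 0.217 and 0.442). Of 5 adaptors and positive regulators, 3 fell in each arm, and 1 rose with siRHOB and none with siNC.

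USP15, a deubiquitinase, fell by 0.44 ± 0.16 with siRHOB and 0.41 ± 0.16 with siNC in log2 units (SE, adjusted p = 0.0351 and 0.0499, edgeR). The USP15 call was lost without MK_siRHOB 2 or 3 (-0.48 and -0.32), Ctl_siRHOB 1 or 2 (-0.42 and -0.39), MK_siNC 3 (-0.25) or Ctl_siNC 1 or 2 (-0.36 and -0.34). HGS, an endosomal sorting protein, rose with siRHOB by 0.31 ± 0.12 (adjusted p = 0.0469), a call lost without MK_siRHOB 1, 2 or 3 (0.35, 0.29 and 0.29) or Ctl_siRHOB 2 or 3 (0.29 and 0.17), and it stood at 0.22 ± 0.12 with siNC (adjusted p = 0.143). RNF111, or Arkadia, which degrades SKIL and SMAD7 protein, stood at -0.11 ± 0.13 in both arms (adjusted p = 0.501 and 0.505).

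Genes listed as targets rose in 14 of 18 tested cases with siRHOB and 13 of 18 with siNC, with 1 lower in each arm. The number lower was 2 in each arm without MK replicate 3, and 4 in each with replicates 1 and 2 alone. PDGFB, which encodes a platelet growth factor, averaged 299 ± 16.0 CPM in MK medium and 2.35 ± 0.709 CPM in growth medium with siRHOB (SD, n = 3), and rose by 6.99 ± 0.23 with siRHOB and 6.47 ± 0.22 with siNC in log2 units (SE, adjusted p = 4.7e-09 and 9.53e-09, edgeR). BHLHE40, a transcriptional repressor, rose by 2.49 ± 0.26 with siRHOB and 2.50 ± 0.26 with siNC (adjusted p = 1.43e-05 and 1.65e-05). JUNB, an AP-1 subunit, rose by 1.90 ± 0.50 with siRHOB and 1.93 ± 0.50 with siNC (adjusted p = 0.00777 and 0.00744). Which signal acted on these genes was not tested.

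Calls close to the threshold also depended on the fit. The USP15 call with siNC was lost under RLE scaling (adjusted p = 0.0676, edgeR), the stricter filter (0.0627), no filter (0.0509), the fit of only the 2 groups (0.0838) and limma on FPKM (0.0707 and 0.0757 with pseudocounts of 0.1 and 1), and that with siRHOB under limma (0.0529 and 0.0572). The INHBE call with siRHOB was lost under RLE scaling (0.0548), both other filters (0.0539 and 0.0515), the fit of only the 2 groups (0.0588) and limma with a pseudocount of 1 (0.0771). BMP6 was not called in either arm by limma (adjusted p between 0.15 and 0.291) or without the filter (0.0582 with siRHOB and 0.0579 with siNC, edgeR). The siNC call of BMPR1A was lost by limma (0.0563 and 0.0592). FURIN and GDF11 with siNC, and HGS with siRHOB, were lost without the filter and in the fit of only the 2 groups (adjusted p between 0.0586 and 0.0967, edgeR). HGS with siRHOB was also lost with replicates 1 and 2 alone (0.16, adjusted p = 0.152). GDF11 with siRHOB passed under RLE scaling (0.0327), the stricter filter (0.0313), DESeq2 (0.0206) and limma (0.0474 and 0.0479), and HGS with siNC passed under limma (0.0408 and 0.043).

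The siRHOB and siNC libraries were next compared within each medium. No gene passed by edgeR in either: 0% of the 14026 tested genes in MK medium and 0% in growth medium, with 50 and 156 genes at an unadjusted p under 0.05. By DESeq2 the calls were likewise 0 (54 and 183 genes before adjustment), and by limma on log2(FPKM + 0.1) they were 0 (93 and 107 genes before adjustment). The siRHOB and siNC ranges overlapped for all 10 members in both media. The share of all genes with overlapping ranges was not counted, so nothing is read from this. The adjusted p was 1 for all 9 members that were tested (edgeR).

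In MK medium the members differed little between the siRNAs where replicates were tight. The log2 fold change was 0.02 ± 0.18 for SMAD3 (95% interval -0.39 to 0.42), -0.02 ± 0.10 for TGFBR1 (-0.25 to 0.21), 0.06 ± 0.20 for TGFB1 (-0.38 to 0.50) and -0.08 ± 0.19 for SKIL (-0.49 to 0.33). INHBA stood at -0.20 ± 0.82 (-2.08 to 1.69), and its replicates spread widely. Its siRHOB level was 104%, 139% and 75.7% of the siNC level in pairs 1, 2 and 3, and the log2 fold change was 1.26 without MK_siNC 3, 0.19 without MK_siRHOB 1, 0.05 without MK_siRHOB 2, -1.15 without MK_siRHOB 3 and 0.04 with the replicate block. Intervals were also wide for SMAD7 (-0.09 ± 0.46, -1.12 to 0.94), TGFBR2 (-0.01 ± 0.49, -1.09 to 1.07) and ACVR1B (-0.23 ± 0.57, -1.49 to 1.03), so a p that misses the threshold does not show equal levels there. These intervals, like those for growth medium below, come from the fit without the replicate number, so the spread of replicate 3 enters them. By pair, log2 ratios were -0.04, 0.20 and -0.25 for SMAD7, 0.69, -0.17 and -0.26 for TGFBR2, and -0.22, 0.03 and -0.32 for ACVR1B.

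In growth medium the log2 fold change was -0.07 ± 0.19 for SMAD3 (95% interval -0.48 to 0.34), -0.0013 ± 0.10 for TGFBR1 (-0.23 to 0.23), 0.05 ± 0.20 for TGFB1 (-0.39 to 0.49), -0.15 ± 0.19 for SKIL (-0.57 to 0.26) and 0.07 ± 0.57 for ACVR1B (-1.20 to 1.34). TGFBR2 stood at 0.19 ± 0.59 (-1.11 to 1.48) on 27 reads in each group. TGFBI stood at 0.56 ± 2.31 (-4.58 to 5.70) on 76 reads with siRHOB and 56 with siNC, of which 74 and 56 lay in replicate 3. INHBA had 0 reads with siRHOB and 2 with siNC, and FST had none in either. SMAD7 was lower with siRHOB in 3 of 3 pairs, at 67.7%, 68.2% and 93.1% of its siNC partner. It was the only 1 of the 10 members with the same direction in all 3 pairs, in either medium. The share of all genes with such a pattern was not counted, so nothing is read from it. The log2 fold change of SMAD7 was -0.31 ± 0.52 (-1.47 to 0.85, adjusted p = 1, edgeR), and it was 0.06 without Ctl_siNC 3 and -0.94 without Ctl_siRHOB 3. The SMAD7 ranges of both groups overlapped.

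**Figure D4:**
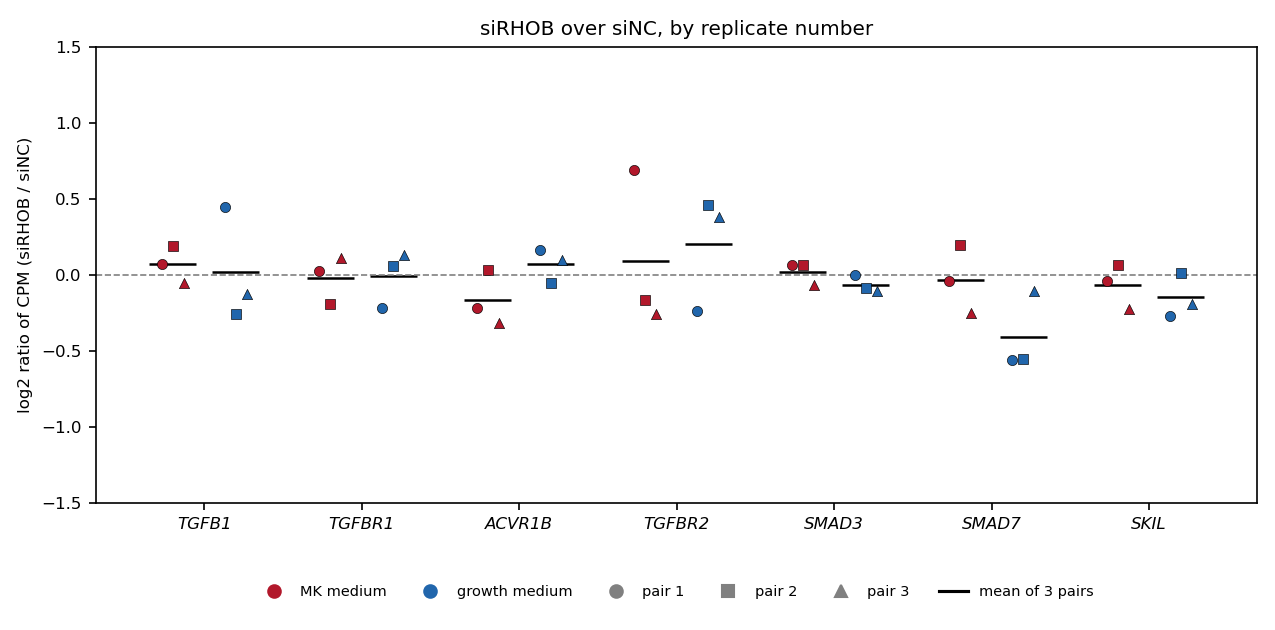
Log2 ratio of CPM in siRHOB over siNC for each replicate number (pair), for the same 7 members, with MK medium left of growth medium and a line at the mean of 3 pairs. For SMAD7 in growth medium the 3 pairs lie below 0, at -0.56, -0.55 and -0.10.

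Whether the siRNA contrast differed by medium was also fitted, with 0% of genes passing by edgeR and 106 at an unadjusted p under 0.05 (124 by DESeq2, which also called 0). Among the 77 other tested pathway genes, 1 in MK medium (FOXH1) and 2 in growth medium (INHBE and CDKN1A) had an unadjusted p under 0.05, with adjusted p = 1 for each, and FOXH1 and CDKN1A were named after their values were seen. The log2 fold changes with siRHOB were 0.75 ± 0.33 for FOXH1 in MK medium, and -0.99 ± 0.32 for INHBE and -0.74 ± 0.27 for CDKN1A in growth medium (SE).

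For each tested member, the genes whose centred log2 CPM over the 12 libraries was closest were sought among 11991 genes with a mean of at least 1 CPM. INHBA was closest to GZMB, granzyme B, and A2M, alpha-2-macroglobulin, with root mean square differences of 0.68 and 0.91 on the log2 scale. SMAD7 was closest to GPRC5C and HAPLN3 (0.28 and 0.32), and SKIL to NRIP3 and GGCX (0.09 and 0.10). TGFB1 was closest to ZNF333 and RALGDS (0.10 and 0.11), and SMAD3 to LRRC8B and LDOC1L (0.08 and 0.09). ACVR1B was closest to ICAM1, an adhesion molecule, and ELK3 (0.18 and 0.20). TGFBR2 was closest to TNS1 and PTHLH (0.32 and 0.37), TGFBR1 to NT5C3A and MAGEA6 (0.04 and 0.05), and TGFBI to BRINP3 and SLAMF6 (0.80 and 0.86). The 12 points share their libraries and the split between media, so closeness over them is a description.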

How the data were processed

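PolyT-selected RNA was sequenced, per the labels' protocols. The authors deposited 1 table of whole-number read counts by gene symbol and another of FPKM, with a column for each library, and 0 columns were left unmapped. The deposited FPKM equal the count divided by a fixed gene length and the column total. HISAT2 2.2.1, featureCounts 2.0.2, edgeR and GRCh37.p13 are named, without role or order, per the submitters' processing notes. No source used here gives the strand setting.

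The counts were fitted with edgeR 4.0.16 (R 4.3.3) by its robust quasi-likelihood test, with TMM scaling and 4 group means over all 12 libraries. filterByExpr with a minimum count of 10 kept 14026 of 19225 genes. Benjamini-Hochberg adjustment ran over these genes, with a threshold of 0.05. Each SE was taken as |log2 fold change| over the root of the F statistic, and intervals are at 95%. Genes with no read in a group got a bound against 3 reads over that group. The code was tested on simulated data.

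Alternatives were RLE scaling, no filter, a stricter filter (1 CPM in 3 libraries), DESeq2 1.42.0, limma 3.58.1 on log2(FPKM + 0.1) and log2(FPKM + 1), the replicate number as a block, only the 2 groups compared, replicates 1 and 2 only, and each library left out. Deviations of same-numbered libraries from their group means correlated across groups (0.151 to 0.834). Replicate 3 stood apart in every group, which alone can make these correlations positive for all 3 numbers. Libraries of numbers 1 and 2 were not compared crosswise, so their pairing is not shown. Pairs by number follow the labels' numbering, and the main fit did not use them. Within groups, log CPM correlated at 0.958 to 0.993 and counts differed beyond sampling noise (chi-square per gene at least 4.21), so each library entered as its own sample.

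The members and lists were chosen with earlier results of these data known. Named genes are the 10 members, the 3 further genes of each role with the highest mean CPM, and the 2 closest genes to each tested member, and any other is said to be named after its values were seen.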

Additional observations from a re-analysis of the deposited data

How the results depend on the processing

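The number of other pathway genes called lower with siNC was 9, and 15 with replicates 1 and 2 only. With those replicates 1 gene of all passed in growth medium for siRHOB against siNC, where 0 passed with all libraries. For siRHOB against siNC in MK medium, the log2 fold change of INHBA turned positive, at 0.0483 and 0.0433 by limma on FPKM with the pseudocounts 0.1 and 1, 0.0435 with the replicate block and 0.30 with replicates 1 and 2 only. TGFBR2 turned to 0.0743, 0.0201, 0.0433 and 0.28 under the same alternatives, and SMAD7 to 0.0818 and SKIL to 0.0147 with replicates 1 and 2 only. TGFBR1 in growth medium turned to 0.0041 by DESeq2 and 0.0040 with RLE scaling. None of these passed a test, and the cause was not tested. Of the genes named by rule other than the members, the replicate block changed the calls of BMP8B (siNC) and GDF11 (siRHOB). With 1 library left out, siRHOB against siNC in MK medium ranged from -0.0249 to 0.22 for TGFB1, -1.15 to 1.26 for INHBA, -0.0838 to 0.0290 for TGFBR1, -1.04 to 0.72 for ACVR1B, -0.40 to 0.68 for TGFBR2, -0.0556 to 0.14 for SMAD3, -0.47 to 0.46 for SMAD7, -0.20 to 0.13 for SKIL and -4.46 to 4.05 for TGFBI. In growth medium it ranged from -0.20 to 0.21 for TGFB1, -0.12 to 0.0851 for TGFBR1, -0.27 to 0.15 for SMAD3, -0.94 to 0.0647 for SMAD7 and -0.29 to 0.0113 for SKIL. FST and TGFBI rest on few reads, which limits what their ratios can show.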
